A study of Mus musculus with 30 samples.

Results

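The Fc gamma receptors of the mouse are the surface molecules through which leukocytes bind the Fc part of IgG. Fcgr1, Fcgr3 and Fcgr4 encode the ligand-binding chains of the activating receptors, which carry no signalling motif of their own and pass the signal through the common gamma chain, encoded by Fcer1g. Fcgr2b encodes the single inhibitory receptor, whose cytoplasmic tail recruits phosphatases. Fcgrt encodes the heavy chain of the neonatal Fc receptor, which pairs with beta-2-microglobulin and returns IgG and albumin from endosomes to the surface. In tumors these genes are read chiefly in macrophages, and the balance of activating to inhibitory receptors is a known determinant of what an IgG antibody does there.

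The 6 genes were taken by name from the 53431 genes of the deposited table, and all 6 were found. They were followed over 30 libraries in 8 groups. Both models, CT-26 and Colon 26, are transplantable colon carcinoma lines from mice, and each was read in 3 cultures and in 4 tumors at each nominal size of 100, 400 and 800 mm3. Cells were implanted in a flank of female BALB/c mice, whose age the labels do not give. The tumor volumes in the labels were 103.33 to 145.86, 400.47 to 464.68 and 810.36 to 938.57 mm3 for CT-26, and 102.9 to 124.88, 401.52 to 466.73 and 807.93 to 963.18 mm3 for Colon 26. No label names an antibody for a sample, so the tumors were read as untreated, although the treatment text of the series describes dosing with checkpoint antibodies. The labels carry no replicate numbers, and tumors are numbered here 1 to 4 within a group only to name them. Nothing says that the 3 cultures of a line were grown separately, so their spread may be technical. In bulk tissue fewer cells of a type and less RNA per cell cannot be told apart.

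Counts on genes summed to between 21384730 and 39722586 per library. Levels are given as FPKM, fragments per kilobase of transcript scaled to sequencing depth, so that genes of different length can be compared. Fold changes come from counts. The pan-leukocyte gene Ptprc was at 0 to 5 counts in every culture. The 8 macrophage markers summed to 477 to 3646 CPM (counts scaled to the library total) in the tumors and to 13.1 to 77.0 CPM in the cultures, where Cd68 alone reached 66.4 CPM in CT-26. Skeletal muscle markers were uneven, with 2348 CPM in Colon 26 tumor 1 of 400 mm3 and 1205 CPM in Colon 26 tumor 2 of 100 mm3 against medians of 0.731 to 201 CPM in the 6 tumor groups.

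In GRCm38, Fcgr4 (chr1:171018920-171029761, plus strand), Fcgr3 (chr1:171051174-171064935), Fcgr2b (chr1:170958617-170976547) and Fcer1g (chr1:171229572-171234365) lie close together on chromosome 1, the last 3 on the minus strand. Fcgr1 lies at chr3:96282909-96293969 and Fcgrt at chr7:45092990-45103851, both on the minus strand. Exons of Fcgr2b overlap a predicted gene, Gm38204, on the other strand. Whether the counting used strand is not given in the sources used here.

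Fcgr3 and Fcgr2b are the closest pair in sequence, and this touches every value that sets one against the other. Coding exon 4 of each, which encodes the outer immunoglobulin domain next to the membrane, is 255 bases long, and the exons are identical at 250 of them (98%), with an unbroken identical run of 113 bases. They are shown because a read lying wholly inside such a run cannot be assigned to one gene. The authors' reads were longer than this run, so only a shortened read would lie wholly inside it. Capitals mark the 5 bases that differ, and the reference is C57BL/6J, not BALB/c.
Fcgr2b exon, chr1:170966446-170966700, minus strand, GRCm38: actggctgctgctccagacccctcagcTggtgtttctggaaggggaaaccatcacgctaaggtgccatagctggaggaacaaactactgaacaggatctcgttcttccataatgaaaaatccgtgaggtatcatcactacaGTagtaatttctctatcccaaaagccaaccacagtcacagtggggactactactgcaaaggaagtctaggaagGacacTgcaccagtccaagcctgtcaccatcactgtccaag
Fcgr3 exon, chr1:171053939-171054193, minus strand, GRCm38: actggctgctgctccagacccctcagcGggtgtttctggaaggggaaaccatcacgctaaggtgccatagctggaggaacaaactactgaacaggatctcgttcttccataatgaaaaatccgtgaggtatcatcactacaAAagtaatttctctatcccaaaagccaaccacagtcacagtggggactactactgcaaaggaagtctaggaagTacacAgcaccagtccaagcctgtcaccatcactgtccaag

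Coding exon 3, for the other immunoglobulin domain, was identical at 241 of 255 bases (94.5%). Fcgr4 shared only 55.7% and 56.5% of the bases of coding exon 4 with Fcgr2b and Fcgr3. Over whole transcripts, 44 of the 1733 different windows of 100 bases of Fcgr3 (2.54%) also stood in Fcgr2b. Such windows are shorter than the authors' reads. Of the 5843 windows of Fcgr2b 82 (1.4%) stood in Fcgr3 or another gene, and none of the windows of Fcgr1, Fcgr4, Fcer1g or Fcgrt stood in a transcript of another gene. Estimated counts of Fcgr3 and Fcgr2b were not whole numbers in 24 of 24 tumors, and those of the other 4 genes were whole in all 24. Values of these 2 genes are therefore uncertain to the extent that reads were apportioned between them.

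The stretches before the start sites of the 3 activating receptors are shown because Fcgr1, Fcgr4 and, less closely, Fcgr3 varied together from tumor to tumor, as described further on. Fcer1g varied with Fcgr1 and Fcgr4 more closely than Fcgr3 did, and its stretch is not shown. The sequences are RefSeq windows of GRCm38.p6 from up to 250 bases before the start, trimmed of bases that any annotated exon covers, and 6 of 6 members had a window. Capitals mark GAGGAA, a core that PU.1 (encoded by Spi1) binds, here always on the other strand as TTCCTC, and TTCNNNGAA, the form of a STAT site.
Fcgr1, chr3:96293970-96294219, minus strand: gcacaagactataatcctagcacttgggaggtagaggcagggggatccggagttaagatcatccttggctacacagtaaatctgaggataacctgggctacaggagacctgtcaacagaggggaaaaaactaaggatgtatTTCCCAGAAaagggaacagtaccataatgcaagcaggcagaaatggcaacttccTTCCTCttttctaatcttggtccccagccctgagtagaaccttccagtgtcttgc
Fcgr3, chr1:171059404-171059626, minus strand: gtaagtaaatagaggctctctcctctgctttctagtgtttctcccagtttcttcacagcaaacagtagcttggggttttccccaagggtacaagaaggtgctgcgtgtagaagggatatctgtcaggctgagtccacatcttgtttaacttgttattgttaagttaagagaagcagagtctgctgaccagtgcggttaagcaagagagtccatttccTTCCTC
Fcgr4, chr1:171018676-171018919, plus strand: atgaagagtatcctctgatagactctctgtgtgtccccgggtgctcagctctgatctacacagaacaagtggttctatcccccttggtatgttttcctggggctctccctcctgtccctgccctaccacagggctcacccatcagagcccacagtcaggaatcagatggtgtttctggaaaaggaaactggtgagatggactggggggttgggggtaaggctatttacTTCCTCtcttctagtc

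GAGGAA on either strand stood in the windows of 3 of the 6 members, Fcgr1, Fcgr3 and Fcgr4, and in 23.3% of all 32851 windows of 250 bases. TTCNNNGAA stood only in that of Fcgr1 among the members and in 7.02% of all windows. The composite ETS-IRF element, which PU.1 and IRF factors share, stood only in that of Fcgr2b among the members and in 2.3% of all. The window of Fcer1g held none of these forms. A match describes these letters and is not a site, and whether matches go with genes varying together was not tested.

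Receptor transcripts were near the floor in cultured tumor cells. Each of the 3 activating receptors, Fcer1g and Fcgr2b had 0 to 6 counts in every culture, and none of the 5 passed the filter on low counts between the lines. Summed over the 3 cultures, Fcgr1 had 9 counts in CT-26 (0.123 CPM, exact Poisson 95% interval 0.0562 to 0.233) and 6 in Colon 26 (0.0521 CPM, 0.0191 to 0.113). Fcer1g had 11 counts in CT-26 and 2 in Colon 26, and Fcgr2b had 11 and 10. These intervals cover counting error only.

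Fcgrt was the one member that the cultured cells expressed. Its level was 22.04, 22.7 and 21.6 FPKM in the CT-26 cultures and 19.2, 19.8 and 18.7 FPKM in the Colon 26 cultures. The lines did not overlap, and Fcgrt was lower in Colon 26 by a log2 fold change of -0.22 ± 0.04 (SE), adjusted p = 9.7e-05 by edgeR's quasi-likelihood test with Benjamini-Hochberg adjustment. Its adjusted p was 0.27 when all 30 libraries shared 1 estimate of the spread. No member was called differentially expressed (DE, an adjusted p of 0.1 or less with a log2 fold change of 1 or more either way) between the cultures, where 22.9% of the 14334 genes tested were. At the adjusted p alone, 40.4% of the genes were lower in Colon 26 cultures, as Fcgrt was. B2m, its light chain, was lower in Colon 26 cultures at 430 ± 17.0 CPM against 1392 ± 60.9 CPM (SD, n = 3). Its log2 fold change was -1.64 ± 0.04 (SE, adjusted p = 5.3e-16, edgeR). Each line was read in its own set of 3 cultures, so line and any culture batch cannot be told apart.

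From culture to tumors of 100 mm3 all 6 members were called higher in both models, beside 22.2% of the 15370 genes tested in CT-26 and 20.8% of 15946 in Colon 26. Fcgr2b averaged 138 CPM in CT-26 tumors against 0.157 CPM in culture, a ratio of 881 (492 to 1764 from the counting error of the cultures). In Colon 26 it averaged 212 against 0.0837 CPM, a ratio of 2534 (1378 to 5283). Fcer1g in Colon 26 was at the floor of 3 counts in every culture and at least 670-fold higher in the tumors. Fcgrt stood apart from the rest, with log2 fold changes of 1.06 ± 0.18 in CT-26 (adjusted p = 0.00084) and 1.39 ± 0.13 in Colon 26 (adjusted p = 9.5e-06, edgeR). Without CT-26 tumor 4 of 100 mm3 the first was 0.88, under the minimum of 1.

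**Figure D1:**
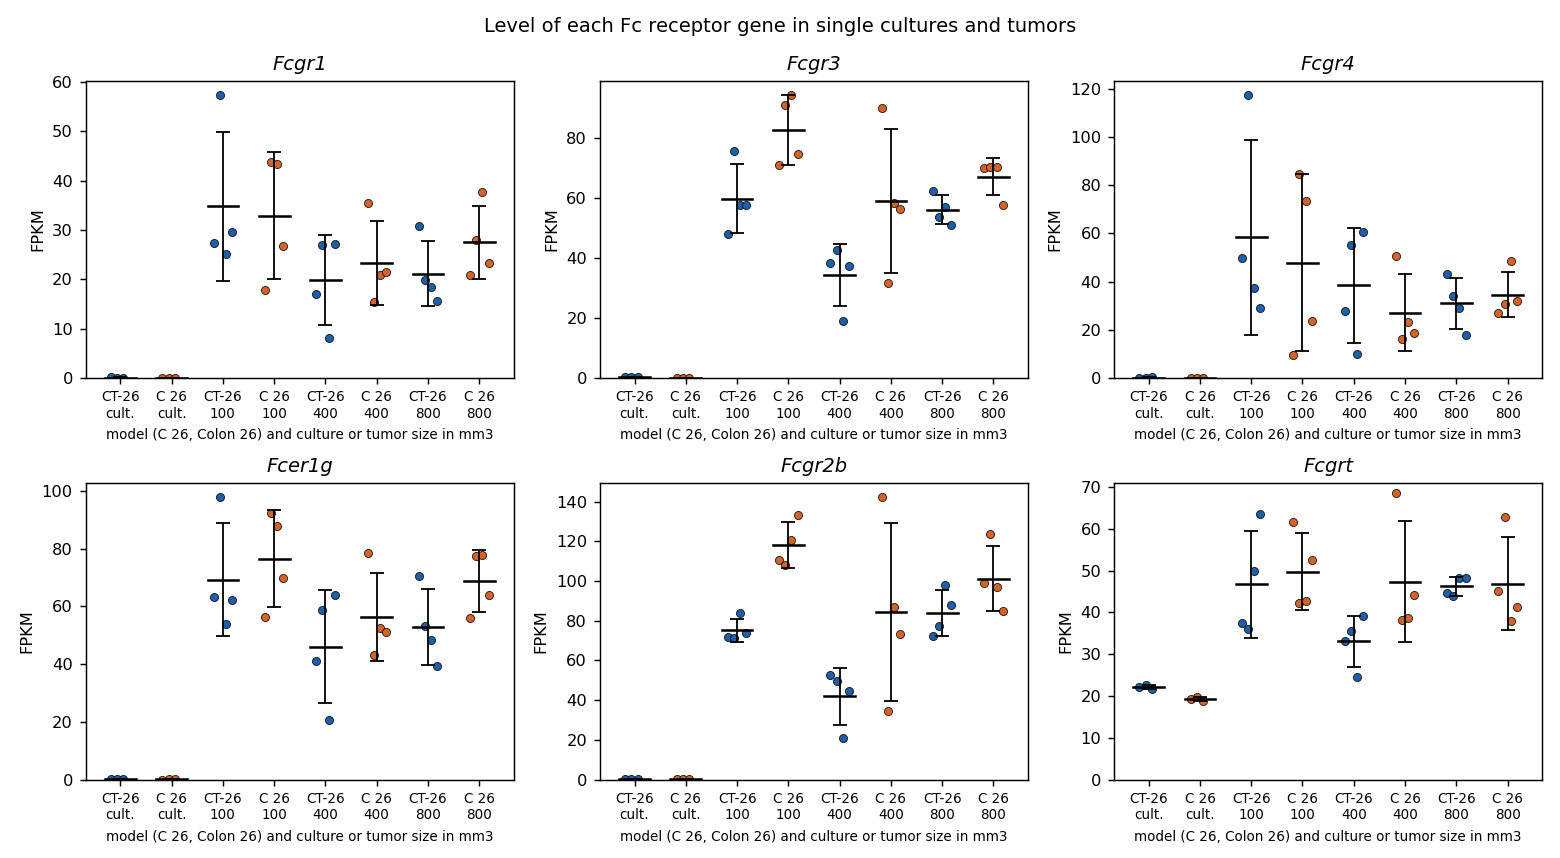
Level of each member in FPKM (y axis, from 0) in every culture and tumor of the 8 groups (x axis). Points are libraries, horizontal bars the mean and whiskers 1 SD; 5 members sit near 0 in culture, while Fcgrt lies at 18.7 to 22.7 FPKM there, and Fcgr2b in Colon 26 tumors of 100 mm3 lies wholly above CT-26.

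Fcgr2b, the inhibitory receptor, was the most abundant of the 6 genes per length in 19 of 24 tumors. At 100 mm3 it stood at 71.9, 71.4, 83.7 and 73.7 FPKM in CT-26 tumors 1 to 4 and at 111, 108, 121 and 133 FPKM in Colon 26. Every Colon 26 tumor of that size lay above every CT-26 tumor. The log2 fold change of Colon 26 against CT-26 was 0.61 ± 0.09 (SE, adjusted p = 0.00060, n = 4 and 4, edgeR), a 1.53-fold difference, and it held its adjusted p without any 1 of the 8 tumors (0.00062 to 0.0024). At 400 mm3 it stood at 52.6, 49.5, 20.7 and 44.6 FPKM in CT-26 and at 142, 34.6, 87.0 and 73.4 FPKM in Colon 26, where the groups overlapped through Colon 26 tumor 2. The log2 fold change was 1.03 ± 0.42 (adjusted p = 0.078, edgeR), the one DE call among the members between the tumor models. It was lost without any of CT-26 tumors 2, 3 and 4 or Colon 26 tumors 1, 3 and 4, and without Colon 26 tumor 1, the tumor with the most muscle RNA, it was 0.63 (adjusted p = 0.21). At 800 mm3 it stood at 72.4, 77.2, 97.9 and 88.1 FPKM in CT-26 and at 98.9, 124, 96.8 and 84.7 FPKM in Colon 26, overlapping, with a log2 fold change of 0.19 ± 0.14 (adjusted p = 0.29, edgeR).

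Fcgr3, the low-affinity activating receptor, came closest to the same course. Its levels at 100 mm3 were 48.1, 75.8, 57.7 and 57.5 FPKM in CT-26 and 71.0, 91.0, 94.2 and 74.6 FPKM in Colon 26. Only CT-26 tumor 2 reached into the Colon 26 range, and the log2 fold change was 0.42 ± 0.14 (adjusted p = 0.036, edgeR). In tumors of 400 mm3 the gene stood at 38.4, 42.6, 19.1 and 37.3 FPKM in CT-26 and at 90.0, 31.5, 58.4 and 56.2 FPKM in Colon 26, with a log2 fold change of 0.72 ± 0.31 (adjusted p = 0.090, edgeR), which rose above 0.1 without any of CT-26 tumors 1, 3 and 4 or Colon 26 tumors 1, 3 and 4 (up to 0.22). At 800 mm3 it stood at 62.3, 53.7, 57.0 and 51.1 FPKM in CT-26 and at 69.98, 70.4, 70.5 and 57.7 FPKM in Colon 26. The difference there was small, 0.20 ± 0.08 (adjusted p = 0.059, edgeR), and missed the threshold without CT-26 tumor 2 or 4 or Colon 26 tumor 1 or 3 (up to 0.15). Its adjusted p was 0.45 when all 30 libraries shared 1 estimate of the spread.

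Fcgr4, an activating receptor of intermediate affinity, had the largest SD relative to its mean in all 6 tumor groups. At 100 mm3 it ranged from 28.9 to 117 FPKM in CT-26 (49.8, 117, 37.2 and 28.9) and from 9.52 to 84.8 FPKM in Colon 26 (9.52, 84.8, 73.4 and 23.6). The 400 mm3 tumors held 27.9, 55.3, 9.86 and 60.5 FPKM in CT-26 and 50.5, 16.0, 23.2 and 18.7 FPKM in Colon 26. At 800 mm3 the values were 43.2, 34.1, 29.0 and 17.8 FPKM in CT-26 and 27.1, 30.9, 48.4 and 31.9 FPKM in Colon 26. The models overlapped at every size, with log2 fold changes of -0.33 ± 0.67, -0.55 ± 0.53 and 0.09 ± 0.24 (adjusted p = 0.71, 0.43 and 0.78, edgeR). No difference between models was larger than the spread between tumors of 1 group.

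Fcgr1, the high-affinity receptor, was the lowest of the 6 by group mean in all 6 tumor groups. At 100 mm3 it stood at 27.3, 57.3, 25.05 and 29.6 FPKM in CT-26 and at 17.8, 43.8, 43.3 and 26.6 FPKM in Colon 26. Among 400 mm3 tumors levels were 17.0, 27.0, 8.13 and 27.2 FPKM in CT-26 and 35.5, 15.4, 20.9 and 21.4 FPKM in Colon 26. At 800 mm3 the values were 30.7, 19.8, 18.5 and 15.5 FPKM in CT-26 and 20.8, 28.0, 37.7 and 23.3 FPKM in Colon 26. The models overlapped at every size (log2 fold changes -0.13, 0.18 and 0.32, adjusted p = 0.79, 0.71 and 0.24, edgeR).

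Fcer1g, the chain that all 3 activating receptors need, stood at 63.1, 97.9, 54.0 and 62.1 FPKM in CT-26 and at 56.3, 92.2, 87.9 and 69.7 FPKM in Colon 26 at 100 mm3. At 400 mm3 it stood at 40.9, 58.6, 20.6 and 63.8 FPKM in CT-26 and at 78.5, 43.2, 52.3 and 51.0 FPKM in Colon 26. At 800 mm3 the values were 70.6, 53.1, 48.3 and 39.4 FPKM in CT-26 and 55.8, 77.2, 77.7 and 63.9 FPKM in Colon 26. The models overlapped at each size and no difference passed (0.10 ± 0.21, 0.24 ± 0.30 and 0.32 ± 0.16, adjusted p = 0.73, 0.55 and 0.11, edgeR). Fcer1g also serves the IgE receptor, and its partners there, Fcer1a and Ms4a2, were lower in Colon 26 at every size, with log2 fold changes of -3.61 and -3.07 at 100 mm3 (adjusted p = 0.00083 and 0.0021, edgeR). Mast cell markers moved with these partners, at 27.8 to 157 CPM summed in CT-26 tumors and 0.703 to 12.6 CPM in Colon 26 tumors. Within groups, by the correlation described further on, Fcer1g and the mast cell markers had r = 0.22 (adjusted permutation p = 0.48). The part of mast cells in the difference of Fcer1g between models was not tested.

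Fcgrt lay between 24.5 and 68.6 FPKM in every tumor. It stood at 37.5, 36.0, 49.8 and 63.5 FPKM in CT-26 and at 61.6, 42.2, 42.8 and 52.5 FPKM in Colon 26 at 100 mm3. In tumors of 400 mm3 the gene stood at 33.1, 35.5, 24.5 and 39.1 FPKM in CT-26 and at 68.6, 38.1, 38.7 and 44.2 FPKM in Colon 26, overlapping, with a log2 fold change of 0.45 ± 0.18 (adjusted p = 0.074, edgeR). Without Colon 26 tumor 1, the top value, that was 0.25 (adjusted p = 0.13), and without any of CT-26 tumors 1, 2 and 3 or Colon 26 tumor 4 the adjusted p was 0.104 to 0.163. At 800 mm3 the values were 44.6, 44.0, 48.1 and 48.2 FPKM in CT-26 and 45.2, 62.9, 38.1 and 41.2 FPKM in Colon 26, and at 100 and 800 mm3 no difference passed (adjusted p = 0.86 and 0.84, edgeR). B2m was lower in Colon 26 tumors, at 611 to 1520 CPM against 1448 to 3033 CPM in CT-26. Its log2 fold changes were -0.99, -1.07 and -0.74 at 100, 400 and 800 mm3, each with an adjusted p of at most 0.1. Only 400 mm3 was called DE (adjusted p = 0.00040, edgeR).

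Over the members, 0, 1 and 0 of 6 were called DE between the tumor models at 100, 400 and 800 mm3, where 13.2%, 14.3% and 14.1% of all genes tested were. At an adjusted p of at most 0.1 alone, 2, 3 and 1 members passed, each higher in Colon 26, against 26.4%, 25.9% and 28.3% of all genes that were higher there. Shares of 6 genes are too coarse to set apart from these. The members' median log2 fold changes were 0.07, 0.35 and 0.20, and the medians over all genes were 0.00, 0.03 and -0.01. Macrophage markers had medians of 0.26, 0.58 and 0.31 over 8 markers, of which 1, Csf1r at 400 mm3, was DE. Their part in the members' differences was not tested.

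**Figure D2:**
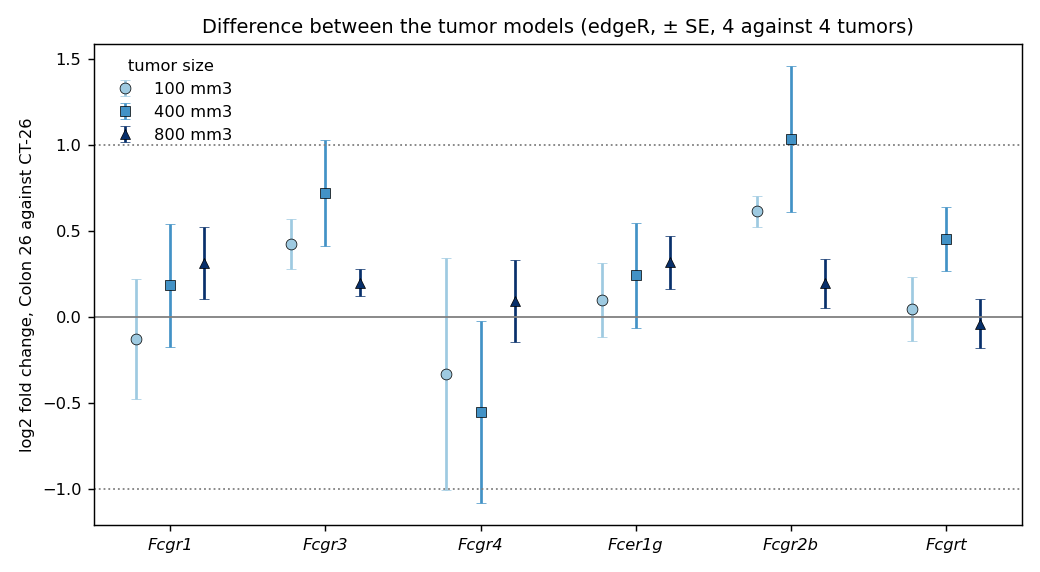
Log2 fold change of Colon 26 against CT-26 (y axis) for each member (x axis) in tumors of 100 (circles), 400 (squares) and 800 mm3 (triangles), with bars of 1 SE from edgeR over 4 against 4 tumors and dotted lines at the minimum of 1. Fcgr2b at 400 mm3 is the one point past a dotted line, at 1.03, and Fcgr4 has the longest bars, 0.67 at 100 mm3.

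No member's model difference was shown to change with size. The interaction of model with size gave adjusted p of 0.74 to 0.97 at 400 against 100 mm3 and 0.77 to 0.95 at 800 against 100 mm3, at an unadjusted p under 0.05 for 0 members, and 0% and 0.23% of all genes passed. So the lone call of Fcgr2b at 400 mm3 was not shown to be particular to that size.

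With growth, 2 members passed the adjusted p, both lower in CT-26 at 400 than at 100 mm3, a change not shown to differ from that of Colon 26 by the interactions above. Fcgr2b fell by 0.88 on the log2 scale (± 0.22 SE, adjusted p = 0.058) and Fcgr3 fell by 0.76 (± 0.20, adjusted p = 0.060, edgeR), and for both the 2 sizes did not overlap. Neither reached the minimum fold change, so 0 of 6 were DE, against 1.14% of all genes. At the adjusted p alone 5.37% of all genes were lower. CT-26 tumor 3 of 400 mm3 had the lowest macrophage sum of all tumors (477 CPM). Without it the changes were -0.66 ± 0.13 and -0.57 ± 0.13 (SE, adjusted p = 0.13 and 0.14, edgeR). The adjustment runs over all genes tested, of which 0 were DE in that fit, against 179 with the tumor. The adjusted p of Fcgr2b also rose above 0.1 without any of CT-26 tumors 1, 3 and 4 of 100 mm3 or tumors 1 and 2 of 400 mm3, and that of Fcgr3 without tumor 4 of 100 mm3 or tumors 1 and 2 of 400 mm3 (up to 0.16). From 100 to 800 mm3 in CT-26 and in both contrasts of Colon 26, 0 members passed an adjusted p of 0.1, and 0%, 0.338% and 1.9% of all genes passed it. Both contrasts of a model share their 100 mm3 tumors. At an unadjusted p under 0.05, 4, 0, 2 and 0 members passed in the 4 contrasts, and DESeq2 called 0 members DE in each.

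In single tumors, the summed FPKM of Fcgr1, Fcgr3 and Fcgr4 exceeded that of Fcgr2b in 21 of 24. At 100 mm3 the ratio was 1.74, 3.51, 1.43 and 1.57 in CT-26 tumors and 0.888, 2.03, 1.75 and 0.938 in Colon 26 tumors. At 400 mm3 it was 1.58, 2.52, 1.79 and 2.80 in CT-26 and 1.24, 1.82, 1.18 and 1.31 in Colon 26. At 800 mm3 it was 1.88, 1.39, 1.07 and 0.958 in CT-26 and 1.19, 1.05, 1.62 and 1.33 in Colon 26. The 3 tumors below 1 were therefore Colon 26 tumors 1 and 4 of 100 mm3 and CT-26 tumor 4 of 800 mm3.

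The ratio averaged 2.07 ± 0.97, 2.17 ± 0.58 and 1.33 ± 0.41 in CT-26 and 1.402 ± 0.58, 1.39 ± 0.29 and 1.30 ± 0.24 in Colon 26 (SD, n = 4) at 100, 400 and 800 mm3. Between models within a size no difference passed a two-sided exact permutation test, with log2 differences (Colon 26 minus CT-26) of -0.56, -0.63 and 0.00 (p = 0.29, 0.086 and 1, adjusted over 15 ratio tests 0.48, 0.48 and 1). The smallest p that 4 against 4 allows is 0.029. Over all 3 sizes, with models permuted within each size, the mean log2 difference was -0.40 (exact p = 0.045 over 343000 arrangements), a ratio 0.76-fold that of CT-26. That value was not firm. Adjusted over the 5 ratios tested this way it was 0.11, and p was above 0.05 in 13 of 24 cases with 1 tumor left out (0.023 to 0.095) and was 0.0503 with counts in place of FPKM. Without Fcgr3, whose sequence is partly shared with Fcgr2b, the difference was -0.65 (exact p = 0.035).

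**Figure D3:**
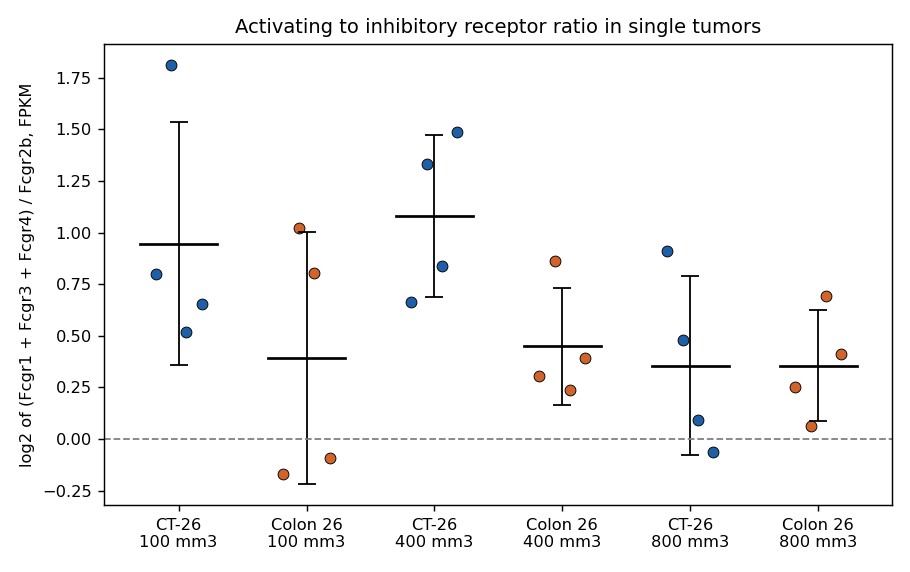
Log2 of the summed FPKM of Fcgr1, Fcgr3 and Fcgr4 over that of Fcgr2b (y axis) in each tumor of the 6 groups (x axis), with the mean (bar) and 1 SD (whiskers). The dashed line is a ratio of 1, which 21 of 24 tumors exceed; CT-26 means lie above Colon 26 at 100 and 400 mm3 and level with it at 800 mm3, and the ranges overlap at each size.

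Of the single ratios, Fcgr4 over Fcgr2b separated the models most. At 400 mm3 it was 0.530, 1.117, 0.475 and 1.36 in CT-26 and 0.355, 0.461, 0.266 and 0.254 in Colon 26, the one ratio of 15 whose groups did not overlap (log2 difference -1.28, exact p = 0.029, adjusted p = 0.43). Over all sizes its difference was -0.85 (exact p = 0.027, adjusted p = 0.11). Fcgr3 over Fcgr2b differed least, at -0.12 over all sizes (exact p = 0.22). The 20 ratio tests of growth gave adjusted p of 0.94 each by the exact permutation test.

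Within the activating sum, Fcgr1 held a narrow range of shares, 17.7% to 25.5% over the 24 tumors. Fcgr3 held 29.8% to 72.2% and Fcgr4 9.68% to 48.4%. By group mean, Fcgr3 held 41.6% ± 9.1, 40.4% ± 10.1 and 52.7% ± 6.4 in CT-26 and 54.5% ± 14.3, 54.1% ± 4.2 and 52.5% ± 6.0 in Colon 26 (SD, n = 4), and the shares were not tested.

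**Figure D4:**
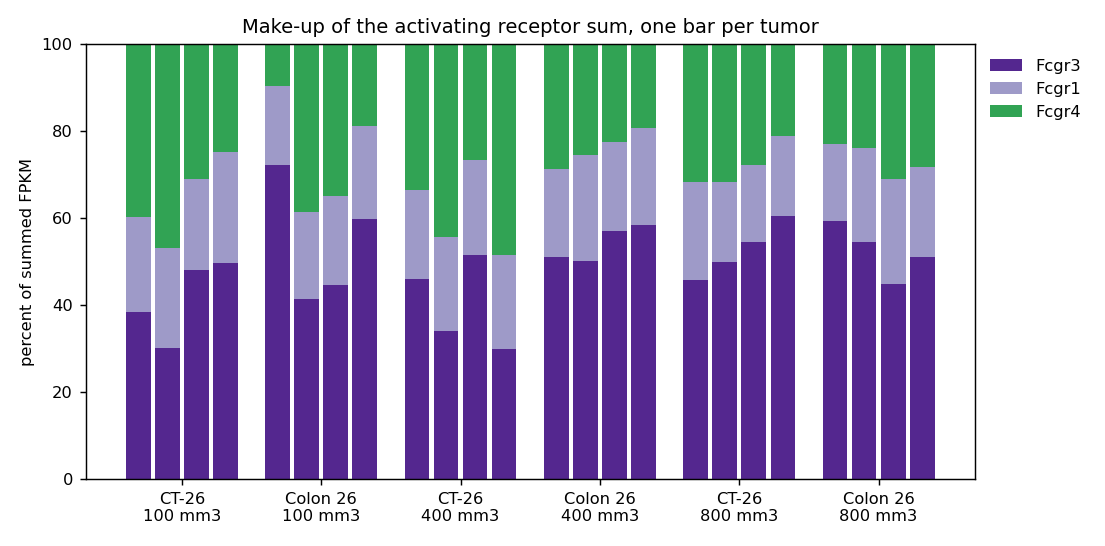
Share of the summed FPKM of Fcgr1, Fcgr3 and Fcgr4 (y axis, percent) held by each receptor, 1 bar per tumor in order 1 to 4 within the 6 groups (x axis). The share of Fcgr1 is 17.7% to 25.5% in every bar, while Fcgr4 runs from 9.68% in Colon 26 tumor 1 of 100 mm3 to 48.4% in CT-26 tumor 4 of 400 mm3.

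Scaled to the mean log2 FPKM of the 8 macrophage markers, 0 of 18 comparisons of a member between models passed adjustment by the exact permutation test, and 3 had an unadjusted p under 0.05. Those 3 were Fcgr1, Fcgr4 and Fcer1g at 400 mm3, each lower in Colon 26 with groups that did not overlap (log2 differences -0.32, -0.99 and -0.26, exact p = 0.029, adjusted p = 0.17). Relative to Ptprc alone Fcgr1 and Fcer1g turned positive there, at 0.41 and 0.47 (adjusted exact permutation p = 0.22 and 0.17). Fcgr2b differed by 0.35, 0.28 and -0.21 at 100, 400 and 800 mm3 relative to the macrophage markers (exact p = 0.17, 0.40 and 0.29). Relative to Ptprc it differed by 0.68, 1.02 and 0.18 (adjusted exact permutation p = 0.40, 0.17 and 0.69). Cd68, 1 of the 8 markers, was also expressed by cultured CT-26 cells.

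Within the groups the members fell into sets that varied together. Deviations of log2 CPM from group means were correlated over 24 tumors, for 15 pairs, with two-sided permutation tests that shuffled tumors within groups (smallest p 1e-05). Fcgr1 and Fcer1g had Pearson's r = 0.97 (permutation p = 1e-05, rho = 0.97, r = 0.96 without the 2 tumors farthest from the median). Fcgr1 and Fcgr4 had r = 0.94 (permutation p = 1e-05, rho = 0.89, r = 0.92 without 2), and Fcgr4 and Fcer1g had r = 0.90 (permutation p = 1e-05, rho = 0.92, r = 0.89 without 2). Within the 12 tumors of each model r was 0.896 to 0.986 for these 3 pairs, and the adjusted p was 5e-05. Thus a tumor rich in one of Fcgr1, Fcgr4 and Fcer1g was rich in the others.

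Fcgr2b had lower coefficients with that set, a difference that was not tested. Its r was 0.42 with Fcgr1, 0.34 with Fcgr4 and 0.47 with Fcer1g (adjusted permutation p = 0.13, 0.18 and 0.13; rho 0.23, 0.08 and 0.20). It went with Fcgrt at r = 0.64 (adjusted permutation p = 0.0024, rho = 0.68, r = 0.53 without 2). With Fcgr3 it had r = 0.82 (adjusted permutation p = 0.020) but rho = 0.48 (adjusted 0.081) and r = 0.58 without 2 tumors, and these 2 genes share stretches of sequence. Fcgr3 stood between, at r = 0.79 with Fcgr1, 0.78 with Fcer1g and 0.71 with Fcgr4 (adjusted permutation p = 0.00041, 0.00051 and 0.00078; rho 0.85, 0.79 and 0.74). Fcgrt had r of -0.00, -0.16 and 0.12 with Fcgr1, Fcgr4 and Fcer1g. Adjusted p stayed at 0.1 or under for 8 of the 15 pairs.

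**Figure D5:**
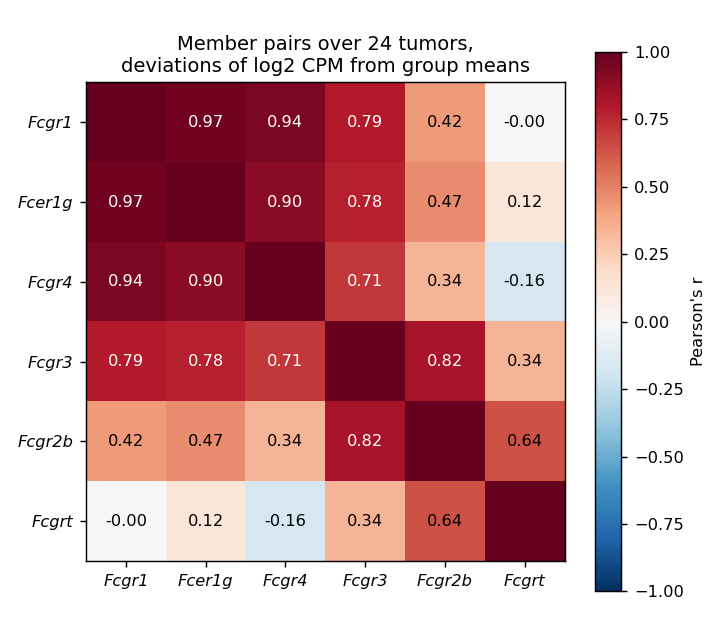
Pearson's r of each pair of members over 24 tumors, from deviations of log2 CPM from group means (colour scale from -1 to 1, both axes list the 6 genes). Fcgr1, Fcer1g and Fcgr4 form a block of 0.90 to 0.97, Fcgr2b reaches 0.34 to 0.47 with them and 0.82 with Fcgr3, and Fcgrt pairs highest with Fcgr2b at 0.64.

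Members were also related to 12 marker lists, and 25 of these 72 relations passed adjustment. With Ptprc, r was 0.90, 0.87 and 0.88 for Fcgr1, Fcgr4 and Fcer1g, and 0.64, 0.22 and -0.20 for Fcgr3, Fcgr2b and Fcgrt (permutation p = 2e-05, 2e-05, 3e-05, 0.0011, 0.32 and 0.42). With the T cell markers r was 0.85, 0.89 and 0.82 for the first 3 and 0.28 for Fcgr2b (permutation p = 2e-05, 1e-05, 1e-05 and 0.19). The monocyte markers gave 0.85, 0.76 and 0.81 for the first 3 and 0.32 for Fcgr2b (permutation p = 1e-05, 1e-05, 1e-05 and 0.17). For the NK cell markers r was 0.71, 0.70 and 0.69 for the first 3 and 0.31 for Fcgr2b (permutation p = 3e-05, 0.00013, 1e-05 and 0.28). With the macrophage markers it was 0.75, 0.61 and 0.81 for the first 3, 0.89 for Fcgr3, 0.78 for Fcgr2b and 0.51 for Fcgrt (permutation p = 0.00038, 0.0031, 0.00061, 0.00011, 0.0079 and 0.028). For Fcgr2b rho with the macrophage markers was 0.55 (permutation p = 0.021) and r without 2 tumors was 0.72. By model, in CT-26 and in Colon 26, the macrophage r was 0.88 and 0.55 for Fcgr1, 0.84 and 0.35 for Fcgr4. It was 0.89 and 0.63 for Fcer1g, 0.96 and 0.86 for Fcgr3, 0.75 and 0.91 for Fcgr2b, and 0.42 and 0.66 for Fcgrt. The difference between these coefficients was not tested.

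Among 11521 genes with a mean of at least 100 counts, close companions of each member by the same r are given as a description. Fcgr1 was near Themis2 and Gm5431 (r = 0.97 each). Fcer1g was nearest Myo1f, C3ar1 and Arl6ip1 (0.97 each), of which C3ar1 encodes the receptor of the complement fragment C3a. Fcgr4 was nearest Pla2g16, Calhm6 and AW112010 (0.95, 0.95 and 0.94). Fcgr3 was near Jaml and Tyrobp (0.94 and 0.92), the latter an adaptor with the same kind of activation motif as Fcer1g. Fcgr2b was nearest Ms4a4a, Igsf8 and Jaml (0.88, 0.86 and 0.83), and Fcgrt was nearest Qsox1, Cbr2 and Fcna (0.93, 0.91 and 0.89).

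Downstream of the activating receptors, 1, 2 and 0 of 20 kinases, adaptors and oxidase genes were DE higher in Colon 26 at 100, 400 and 800 mm3 and 0 lower. They were Fgr, a Src family kinase (log2 fold change 1.01 ± 0.15, adjusted p = 0.00068, edgeR), and at 400 mm3 Card9 (1.04 ± 0.34, 0.032) and Ncf1 (1.05 ± 0.35, 0.037), an adaptor and an oxidase subunit. The list's median was 0.16, 0.21 and 0.27. Its share of DE genes lay below that of all genes tested at each size (13.2%, 14.3% and 14.1% DE either way). At an adjusted p of at most 0.1 alone, 5, 5 and 9 of the 20 were higher in Colon 26 and 0 lower. By that rule 26.4%, 25.9% and 28.3% of all genes tested were higher there. Among 6 phosphatases and adaptors of inhibitory receptors, only Dok2 was DE, at 400 mm3 (1.01 ± 0.43, adjusted p = 0.090), beside 14.3% of all genes. It also fell in CT-26 from 100 to 400 mm3 (-1.13 ± 0.20, adjusted p = 0.045, edgeR), where 1.14% of all genes were DE. That call was lost without CT-26 tumor 3 of 400 mm3, as 0 of all genes tested were then DE. Among cytokines and factors known to shift these receptors, Ifng was lower in Colon 26 at 400 mm3 (-1.61 ± 0.58, adjusted p = 0.049, edgeR). In culture Lyn, a kinase of both arms, was expressed by CT-26 at 13.5 CPM and by Colon 26 at 0.268 CPM. There 3 of 8 tested genes of the activating list were DE lower in Colon 26, beside 22.9% of all genes DE either way.

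In a list of 10 other immunoglobulin receptors and Fc receptor-like genes, 2 of the latter kind were DE higher in Colon 26. They were Fcrlb at 100 mm3 (1.31 ± 0.26, adjusted p = 0.0028) and Fcrls at 400 mm3 (2.01 ± 0.75, adjusted p = 0.055, edgeR), of 4 and 3 genes tested. Of all genes tested 13.2% and 14.3% were DE at these sizes, and so few genes cannot be set apart from that. Transcripts of the IgG heavy chain genes on the list were nearly absent. Ighg2a was not on the list, and IgG protein was not measured. Ighg1, Ighg2b, Ighg2c and Ighg3 were each at 2.63 CPM or less in every tumor, and B cell markers summed to 0.677 to 2.93 CPM. None of the 8 immunoglobulin genes was DE between the tumor models, of 2, 2 and 1 tested.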

How the data were processed

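RNA of 3 cultures and 12 tumors of each model was sequenced as paired-end poly-A libraries. The authors counted reads per gene with Array Studio and Ensembl release 78, and deposited estimated counts, of which 22.6% of nonzero values are not whole (tolerance 1e-06), and a table of FPKM values. Aligner, genome build and strand handling are not given in the sources used here. The submitters' processing notes name DESeq2 1.24.0.

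Estimated counts were rounded, where whole counts had been planned for, and 97.7% of identifiers matched a symbol. Groups came from the labels. Each comparison used only the libraries it names: edgeR 4.0.16 (R 4.3.3) with TMM factors, filterByExpr, quasi-likelihood test and Benjamini-Hochberg adjustment over all genes tested. Growth used the 3 sizes of a model, and interactions all 24 tumors. DE meant an adjusted p of 0.1 or less and a log2 fold change of 1 or more either way. Alternatives used limma 3.58.1 and DESeq2 1.42.0, other factors and filters, FPKM pseudocounts of 0.1 and 1, and each library left out. Ratios and levels relative to markers were tested on log2 FPKM by two-sided exact permutation (scipy 1.17.1), and correlations on log2 CPM (prior count 2) by 100000 permutations within groups. Scripts were tested on simulated data.

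The members and lists were chosen with earlier results of these data known. Besides the members, the text names list genes called DE, at most 3 in each direction for a list, and the 3 genes most like each member, of which some are not reported here. Ptprc, Cd68, the Ighg genes and, at 100 and 800 mm3, B2m were named beyond this rule after their values were seen. Depth was 21384730 to 39722586 counts for a library.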

Additional observations from a re-analysis of the deposited data

Results flagged for a closer look

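Among 66 groups of 4 tumors tested for a value far from the rest, 2 stood out, and chance alone marks about 1 in 20. Fcgr1 in CT-26 tumor 2 of 100 mm3 was at 57.3 FPKM, against 29.6 FPKM in the next tumor, a gap of 0.858 of the group's range. Fcgr3 in Colon 26 tumor 4 of 800 mm3 was at 57.7 FPKM, against 69.98 FPKM in the next, a gap of 0.961 of the range.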

How the results depend on the processing

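No result that passed its test changed sign, whereas several that had not passed did, such as Fcgr4 between models at 100 mm3 (-0.75 to 0.26) and Fcgr1 at 400 mm3 (-0.07 to 0.38) with single tumors left out. Leaving out the minimum fold change raised the number of members called from 0 to 2 at 100 mm3, from 1 to 3 at 400 mm3, from 0 to 1 at 800 mm3, from 0 to 1 (Fcgrt) between cultures and from 0 to 2 in CT-26 from 100 to 400 mm3. At 400 mm3 the call of Fcgr2b became 0 at an adjusted p of 0.05 and 0 with limma on FPKM at either pseudocount, and it was 0 to 1 with single tumors left out. Between cultures, 2 members were called without a filter on low counts (Fcgr3 and Fcer1g), 1 by DESeq2 and 1 in a fit of all 30 libraries (Fcer1g in both), all on at most 5 counts in a library. From culture to tumor, asking for 10 counts in every library left 1 member, Fcgrt, called in each model, because the rest were not tested. The activating to inhibitory ratio over all sizes was -0.41 (log2, exact p = 0.0503) with counts, and -0.465 to -0.299 with single tumors left out. Causes were not tested. No paired analysis was possible because the labels carry no replicate numbers that tie samples of different groups. Depth limits the 5 receptor genes in culture, where at most 6 counts were seen.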
